A study of Homo sapiens with 30 samples.

Results

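The zinc finger genes studied here lie together near the telomere of the long arm of chromosome 19, in band 19q13.43. They were taken by symbol from a list of 49 genes, and all 49 were present in every count file, out of 24462 gene symbols and out of 476 symbols that begin with ZNF. On GRCh38, by the GENCODE 29 annotation, the 49 genes run from position 56087366 to position 58481230 of chromosome 19, a span of 2.39 Mb, with 31 on the plus strand and 18 on the minus strand. A gap of 520 kb between ZNF835 and ZNF264 parts 9 genes on the centromeric side from 40 on the telomeric side. The authors' files use hg19, so these positions serve only to order the genes.

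Most genes of this cluster encode KRAB zinc finger proteins. Such a protein binds DNA through an array of C2H2 zinc fingers, and its KRAB domain binds the corepressor TRIM28, which in turn brings in SETDB1, a histone methyltransferase whose product is trimethylated lysine 9 of H3. The bodies and 3′ ends of KRAB zinc finger genes carry that mark themselves in many cell types, and ZNF274, encoded inside this cluster, is known to recruit SETDB1 to them. Several genes of the cluster, among them ZNF154, ZNF582, ZNF671, ZNF471 and ZNF132, are known for promoter methylation and silencing in tumours.

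The libraries come from 3 human colorectal cancer cell lines, Caco2, HCT116 and SW480, and fall into 10 groups of 3. All lines were transduced with retroviral hairpin vectors and selected with puromycin, per the labels. In Caco2, cells with a scramble hairpin (shScramble) were kept in vehicle (Veh) or in differentiation medium (Diff), which contains troglitazone at 10 uM and 1α,25-dihydroxyvitamin D3 at 25 nM, ligands of PPARG and VDR, from 3 days after transduction. Caco2 cells with a hairpin against SETDB1 (shSETDB1) were separated into a KRT20-negative (KRT20-nega) and a KRT20-positive (KRT20-posi) fraction. KRT20 is a keratin of differentiated intestinal epithelium. In HCT116 and SW480, shSETDB1 cells were separated into a KRT-negative (KRTnega) and a KRT-positive (KRTplus) fraction, and the reference is unsorted cells. Which keratin KRT stands for in these 2 lines is not stated, so a step between fractions may rest on sorts for different keratins when lines are compared. Not stated are the medium of the shSETDB1 and unsorted cells, the hairpin of the unsorted cells, how many hairpin sequences were used, or whether replicates were separate cultures. In Caco2 the hairpin, the sort and possibly the medium therefore cannot be told apart, and p-values measure the spread between these libraries, which may be technical.

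Library totals ran from 5349737 to 10221854 counts. Genes with a count numbered 17176 to 18099 per library in Caco2 and 11972 to 14148 in the other lines at similar totals, and the biological coefficient of variation of the fits was 0.102 in Caco2, 0.781 in HCT116 and 0.935 in SW480. A level of 0 in HCT116 or SW480 is therefore less informative than the total alone would make it, and the limit that 3 counts set covers counting error only. Epithelial markers were present in all lines (8 to 9 of 9 with a count in Caco2, 6 to 7 in the others), with CDX1 at 0 in HCT116 and SW480, VIL1 at 0 in HCT116 and LGALS4 at 0 in SW480. In Caco2 they summed to 4830 to 4910 CPM in vehicle, 5980 to 6110 in differentiation medium, 3950 to 4340 in the KRT20-negative and 4620 to 4690 in the KRT20-positive fraction. Fibroblast markers (14 to 16 of 16 with a count in Caco2) summed to 63.5 to 73.2 CPM in vehicle, 90.5 to 109 in differentiation medium, 154 to 967 in the KRT20-negative and 154 to 181 in the KRT20-positive fraction, the 967 being KRT20-negative replicate 3. Leukocyte markers summed to 69.5 to 79.0, 81.5 to 86.8, 73.8 to 80.4 and 105 to 109 CPM in the same order, with MS4A1 at 0 in all lines. Whether these marker levels bear on the cluster was not tested, and in bulk RNA fewer cells of a type and less RNA per cell cannot be told apart.

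The targeted gene was measured first. SETDB1 stood at 33.6, 32.5 and 29.8 CPM in vehicle, 34.2, 33.0 and 39.5 in differentiation medium, 20.2, 24.7 and 21.7 in the KRT20-negative and 20.3, 23.7 and 26.8 in the KRT20-positive fraction. Here and below the levels are CPM, read counts of a gene scaled to the size of the library with TMM factors, and a change was called when the adjusted p of edgeR's quasi-likelihood test (Benjamini-Hochberg over all genes tested) was under 0.05. SETDB1 fell by 0.52 on the log2 scale in the KRT20-negative fraction (SE 0.13, adjusted p = 0.00231, edgeR) and by 0.42 in the KRT20-positive fraction (SE 0.13, adjusted p = 0.0119, edgeR). In HCT116 it was 67.2, 68.2 and 16.4 CPM in unsorted cells, 0, 5.43 and 2.79 in the KRT-negative and 2.00, 18.5 and 29.1 in the KRT-positive fraction, and only the first difference was called (log2 fold change -4.19, SE 1.14, adjusted p = 0.0424, edgeR). In SW480 it was 36.6, 36.5 and 15.4 in unsorted cells, 36.9, 0.224 and 3.18 in the KRT-negative and 0, 0 and 12.1 in the KRT-positive fraction, and no difference was called (adjusted p = 0.938 and 0.523, edgeR).

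Promoters are shown for 5 members on which the results turn: ZNF550 and ZNF154, read in Caco2 and at 0 counts in every HCT116 and SW480 library; ZNF264, at most 2 counts over the SW480 unsorted cells; ZNF304, read at 15 CPM or more only in HCT116; and ZNF470, which had the largest fold change in the Caco2 hairpin cells. Each is 300 bases of RefSeq sequence on GRCh38.p14, from 250 before the start of the gene to 50 after it, written 5′ to 3′ on the strand of the gene, with every CG dinucleotide in capitals, the site of DNA methylation in human cells.
ZNF550 (chr19:57559814-57560113, minus strand): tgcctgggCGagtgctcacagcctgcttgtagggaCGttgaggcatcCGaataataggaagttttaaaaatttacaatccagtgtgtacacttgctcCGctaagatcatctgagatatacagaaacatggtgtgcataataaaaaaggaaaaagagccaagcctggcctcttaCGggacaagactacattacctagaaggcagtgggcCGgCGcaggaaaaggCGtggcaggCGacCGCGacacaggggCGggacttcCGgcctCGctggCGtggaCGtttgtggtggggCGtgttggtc
ZNF154 (chr19:57709155-57709454, minus strand): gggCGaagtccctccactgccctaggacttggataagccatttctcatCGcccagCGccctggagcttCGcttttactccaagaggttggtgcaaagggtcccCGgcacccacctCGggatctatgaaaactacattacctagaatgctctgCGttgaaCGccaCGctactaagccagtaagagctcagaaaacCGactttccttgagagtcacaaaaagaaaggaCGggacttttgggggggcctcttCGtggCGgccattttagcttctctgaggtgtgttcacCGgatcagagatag
ZNF264 (chr19:57191250-57191549, plus strand): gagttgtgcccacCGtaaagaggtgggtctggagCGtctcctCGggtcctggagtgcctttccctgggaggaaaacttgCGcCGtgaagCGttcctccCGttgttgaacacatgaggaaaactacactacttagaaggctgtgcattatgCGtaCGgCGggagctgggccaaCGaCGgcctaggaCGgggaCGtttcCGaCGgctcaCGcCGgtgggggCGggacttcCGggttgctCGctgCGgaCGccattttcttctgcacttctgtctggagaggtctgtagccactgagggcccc
ZNF304 (chr19:57351021-57351320, plus strand): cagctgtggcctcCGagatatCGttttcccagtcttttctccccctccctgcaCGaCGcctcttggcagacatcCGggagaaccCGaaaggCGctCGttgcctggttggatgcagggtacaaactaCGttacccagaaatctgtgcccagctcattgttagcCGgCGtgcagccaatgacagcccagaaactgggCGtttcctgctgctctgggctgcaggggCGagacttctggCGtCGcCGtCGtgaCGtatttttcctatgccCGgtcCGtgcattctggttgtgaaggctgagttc
ZNF470 (chr19:56567218-56567517, plus strand): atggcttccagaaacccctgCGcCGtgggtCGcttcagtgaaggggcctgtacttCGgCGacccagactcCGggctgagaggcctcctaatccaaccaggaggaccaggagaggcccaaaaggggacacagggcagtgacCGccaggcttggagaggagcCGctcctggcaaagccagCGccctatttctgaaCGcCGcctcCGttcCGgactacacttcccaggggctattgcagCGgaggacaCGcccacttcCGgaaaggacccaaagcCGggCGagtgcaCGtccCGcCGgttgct

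The motif counted was CG, which is the same on both strands and cannot overlap itself. ZNF550 has 17, a count that 46.0% of the 27305 promoters in the RefSeq table reach or exceed. ZNF154 has 14 (50.1% of promoters), ZNF264 has 23 (35.6%), ZNF304 has 20 (41.2%) and ZNF470 has 21 (39.5%). Of the 49 members 45 matched the table, with a median of 23 CG (range 11 to 42) against 14 over all promoters, and 33 of the 45 had at least 20 CG against 41.2% of all promoters. These counts describe the letters in the window, and DNA methylation was not analysed here.

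**Figure D1:**
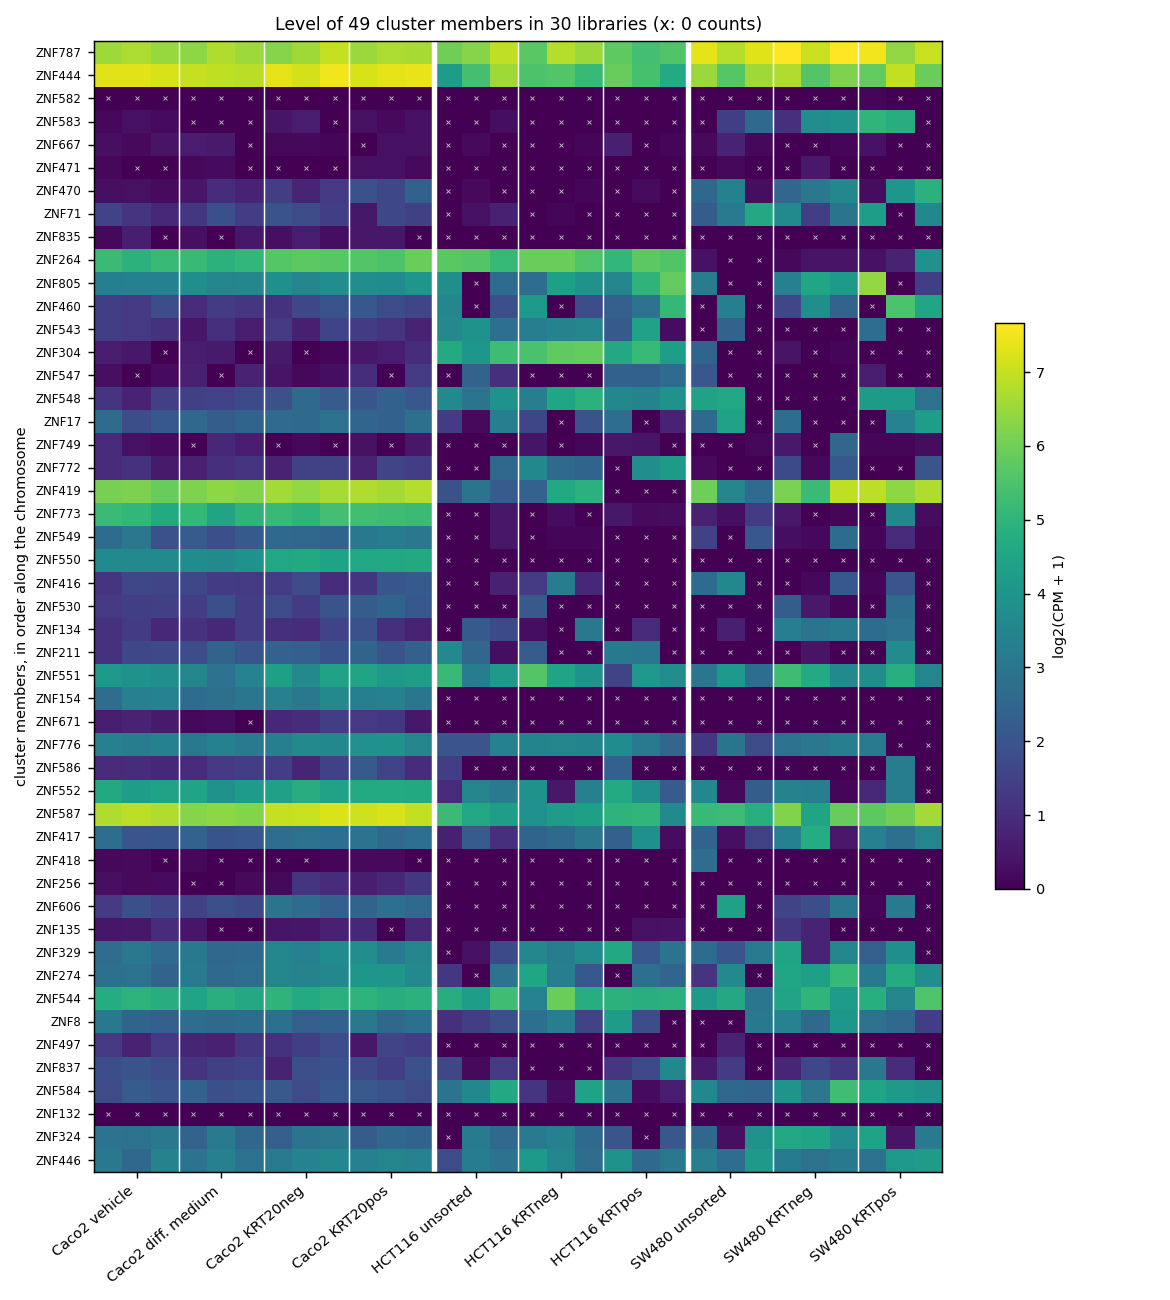
Level of the 49 members (rows, in order along chromosome 19) in the 30 libraries (columns, 3 per group), as log2(CPM + 1), with an x where a library has 0 counts. Caco2 columns are alike within a group, whereas HCT116 and SW480 columns differ between replicates, and ZNF550 and ZNF154 have a count in every Caco2 library and none in the other lines.

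The first Caco2 comparison asks what the differentiation medium did to scramble cells. Of the 37 members that passed the filter on low counts in Caco2, 0 were called higher and 3 lower, where 20.9% of the 13968 genes tested were called in either direction (10.4% higher, 10.5% lower). The median log2 fold change of the 37 was -0.04, against 0.00 over all genes tested. The other 12 members, ZNF582, ZNF583, ZNF667, ZNF471, ZNF835, ZNF304, ZNF547, ZNF749, ZNF418, ZNF256, ZNF135 and ZNF132, were below the filter in this line and are not part of any count for it.

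The 3 members that fell in differentiation medium were ZNF587, ZNF551 and ZNF444. ZNF587 encodes a KRAB zinc finger protein known, with its paralog ZNF417, to bind and repress HERVK elements. Its levels were 106, 119 and 106 CPM in vehicle and 75.6, 80.9 and 73.7 in differentiation medium, with no overlap, and it fell by 0.52 on the log2 scale (SE 0.09, adjusted p = 0.000236, edgeR). ZNF551, which overlaps ZNF154 on the other strand, was at 15.9, 14.2 and 13.2 CPM in vehicle and 10.1, 6.47 and 9.54 in differentiation medium, a fall by 0.72 (SE 0.21, adjusted p = 0.0183, edgeR). ZNF444 encodes a protein with a SCAN dimerisation domain in place of KRAB. It was at 159, 159 and 147 CPM in vehicle and 127, 121 and 116 in differentiation medium, a fall by 0.35 (SE 0.09, adjusted p = 0.00456, edgeR). All 3 libraries in differentiation medium lay below all 3 in vehicle for each of these genes, as they did for 19.7% of all genes tested. Leaving out 1 library ended the call of ZNF551 in 2 cases, without vehicle replicate 1 (adjusted p = 0.0854, edgeR) and without differentiation medium replicate 2 (adjusted p = 0.102, edgeR).

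ZNF274 did not pass the test in this comparison. It was at 6.15, 6.31 and 4.45 CPM in vehicle and 8.15, 5.21 and 5.64 in differentiation medium, overlapping groups with a log2 fold change of 0.17 (SE 0.23, adjusted p = 0.647, edgeR).

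In shSETDB1 Caco2 cells part of the cluster was called higher than in vehicle, and no tested member was called lower. In the KRT20-negative fraction 10 of 37 tested members were called higher and 0 lower (6 had a log2 fold change below 0), where 36.2% of all genes tested were called (18.6% higher, 17.6% lower). The members were ZNF419, ZNF548, ZNF550, ZNF211, ZNF587, ZNF606, ZNF274, ZNF329, ZNF264 and ZNF470. In the KRT20-positive fraction 13 of 37 were called higher and 0 lower (4 below 0), where 37.7% of all genes tested were called (19.3% higher, 18.4% lower). Besides those 10 genes the list held ZNF530, ZNF776 and ZNF805. The median log2 fold change of the 37 members was 0.36 in the KRT20-negative and 0.49 in the KRT20-positive fraction, against 0.01 over all genes tested in each. All 3 libraries of the fraction lay above all 3 of vehicle in 22.8% (KRT20-negative) and 24.8% (KRT20-positive) of all genes tested. The 2 comparisons share the vehicle libraries, so they are not independent of each other.

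The same counts for other zinc finger genes set the scale. Of 338 other tested genes whose symbol is ZNF and a number, 104 were called higher and 12 lower in the KRT20-negative fraction (median log2 fold change 0.34) and 101 higher and 14 lower in the KRT20-positive fraction (median 0.29). Of 16 tested zinc finger genes of 19p12, the large KRAB cluster on the short arm of the same chromosome, 10 and 12 were called higher and 0 lower, with medians of 1.04 and 1.19. The share of members called higher, 27.0% and 35.1%, thus lay near that of other ZNF genes, 30.8% and 29.9%, and below that of 19p12, 62.5% and 75%. These differences between lists were not tested.

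ZNF274, the member known to recruit SETDB1, rose in both fractions. Its levels were 10.4, 9.74 and 10.9 CPM in the KRT20-negative and 15.6, 15.5 and 11.2 in the KRT20-positive fraction, all 6 above the highest scramble library at 8.15. Against vehicle the fold of the means was 1.84 (log2 fold change 0.87, SE 0.21, adjusted p = 0.00247, edgeR) and 2.50 (log2 fold change 1.33, SE 0.21, adjusted p = 2.32e-05, edgeR). The step between the fractions was not called (log2 fold change 0.46, SE 0.19, adjusted p = 0.229, edgeR).

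ZNF550 rose in both fractions. It was at 11.5, 11.2 and 11.4 CPM in vehicle, 22.8, 24.3 and 20.7 in the KRT20-negative and 22.7, 22.5 and 24.0 in the KRT20-positive fraction. The groups were far apart relative to their spread, with folds of 1.98 and 2.02 (log2 fold change 0.99 and 1.03, SE 0.14 for each, adjusted p = 7.07e-06 and 3.89e-06, edgeR). ZNF550 overlaps ZNF549 on the other strand, and whether counting used strand is not given in the sources used here. ZNF549 was at 5.51, 7.15 and 2.70 CPM in vehicle, 5.20, 4.87 and 4.52 in the KRT20-negative and 7.46, 8.44 and 7.28 in the KRT20-positive fraction, and was called against vehicle in neither.

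ZNF419, a source of a known minor histocompatibility antigen, is one of the more highly counted members. It was at 66.7, 70.4 and 58.1 CPM in vehicle, 96.2, 83.8 and 99.6 in the KRT20-negative and 107, 97.5 and 110 in the KRT20-positive fraction, folds of 1.43 and 1.61 (adjusted p = 0.00014 and 2.89e-06, edgeR). ZNF264 was at 35.9, 29.2 and 35.2 in vehicle, 48.9, 51.7 and 49.7 in the KRT20-negative and 47.6, 45.3 and 58.6 in the KRT20-positive fraction, folds of 1.5 and 1.51 (adjusted p = 0.000317 and 0.000196, edgeR). ZNF587 moved against its fall in differentiation medium, to 126, 129 and 149 CPM in the KRT20-negative and 137, 144 and 122 in the KRT20-positive fraction, a fold of 1.22 over vehicle in each (adjusted p = 0.0123 and 0.0088, edgeR). For these 3 genes every shSETDB1 library lay above every vehicle library. The calls of ZNF587 were the least secure of the 3. In the KRT20-negative fraction its adjusted p by edgeR was 0.066 without vehicle replicate 1, 0.0537 without vehicle replicate 3 and 0.0569 without KRT20-negative replicate 3. In the KRT20-positive fraction it was 0.0512 without vehicle replicate 1 and 0.0562 without KRT20-positive replicate 2. ZNF587 also overlaps ZNF814 on the other strand. Whether counting used strand is not given, so their counts may not be separate.

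ZNF329, a C2H2 zinc finger gene, was at 5.64, 7.43 and 5.40 CPM in vehicle, 10.4, 9.13 and 12.3 in the KRT20-negative and 12.4, 8.17 and 10.2 in the KRT20-positive fraction, folds of 1.72 and 1.67 (adjusted p = 0.00679 and 0.01, edgeR). ZNF606 was at 1.41, 2.66 and 2.06 CPM in vehicle, 6.74, 5.48 and 4.20 in the KRT20-negative and 4.50, 5.99 and 5.12 in the KRT20-positive fraction, folds of 2.67 and 2.54 (adjusted p = 0.000839 and 0.00125, edgeR). ZNF548 was at 1.28, 0.701 and 1.75 CPM in vehicle, 2.72, 5.23 and 3.57 in the KRT20-negative and 3.10, 4.22 and 3.24 in the KRT20-positive fraction, folds of 3.09 and 2.83 (adjusted p = 0.00172 and 0.00337, edgeR). The groups did not overlap for any of the 3, and the relative change was larger for the sparsely counted ZNF606 and ZNF548. Without KRT20-positive replicate 1, the call of ZNF329 in that fraction was lost (adjusted p = 0.0716, edgeR).

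ZNF470, on the centromeric side of the gap, had the largest fold change. It was at 0.256, 0.281 and 0.159 CPM in vehicle, 0.370, 0.946 and 0.672 in differentiation medium, 1.65, 0.730 and 1.47 in the KRT20-negative and 2.81, 2.18 and 4.18 in the KRT20-positive fraction. The fitted log2 fold change against vehicle was 2.38 (SE 0.65, adjusted p = 0.00563, edgeR) in the KRT20-negative and 3.63 (SE 0.59, adjusted p = 2.82e-05, edgeR) in the KRT20-positive fraction. The vehicle libraries held 5 counts of the gene in all, so the size of these folds is loosely fixed. Its promoter, printed above, has 21 CG.

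The remaining called members are sparse. ZNF211 was at 1.15, 2.10 and 2.22 CPM in vehicle, 4.26, 3.90 and 2.84 in the KRT20-negative and 4.50, 3 and 4.04 in the KRT20-positive fraction (adjusted p = 0.0262 and 0.0165, edgeR), but it was also at 2.47, 4.42 and 3.09 in differentiation medium, so that it did not separate all shSETDB1 from all scramble libraries. ZNF530 was at 1.41, 1.68 and 1.75 CPM in vehicle, 2.36, 1.58 and 2.94 in the KRT20-negative and 3.8, 4.49 and 3.24 in the KRT20-positive fraction, where its fold over vehicle was 2.38 (adjusted p = 0.00823, edgeR). In the KRT20-positive fraction ZNF776 was at 13.6, 14.3 and 10.2 CPM against 9.23, 8.27 and 9.21 in vehicle (adjusted p = 0.0261, edgeR), and ZNF805 was at 12.5, 12.1 and 15.2 against 8.97, 9.26 and 9.37 (adjusted p = 0.0159, edgeR). These 4 genes had folds of 1.43 to 2.38 where called. Apart from ZNF530, their calls did not hold when any 1 of several libraries was left out. ZNF211 was not called in the KRT20-negative fraction without vehicle replicate 1 (adjusted p = 0.144, edgeR), KRT20-negative replicate 1 (0.0844) or replicate 2 (0.063). In the KRT20-positive fraction it was not called without vehicle replicate 1 (adjusted p = 0.1, edgeR) or KRT20-positive replicate 1 (0.0693). ZNF776 was not called without vehicle replicate 1 (adjusted p = 0.0546, edgeR), vehicle replicate 2 (0.087), KRT20-positive replicate 1 (0.0906) or replicate 2 (0.116). ZNF805 was not called without vehicle replicate 1 (adjusted p = 0.0529, edgeR) or KRT20-positive replicate 3 (0.0952). DESeq2 did not call ZNF211 in the KRT20-negative fraction (adjusted p = 0.0533) or ZNF776 (0.0571).

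**Figure D2:**
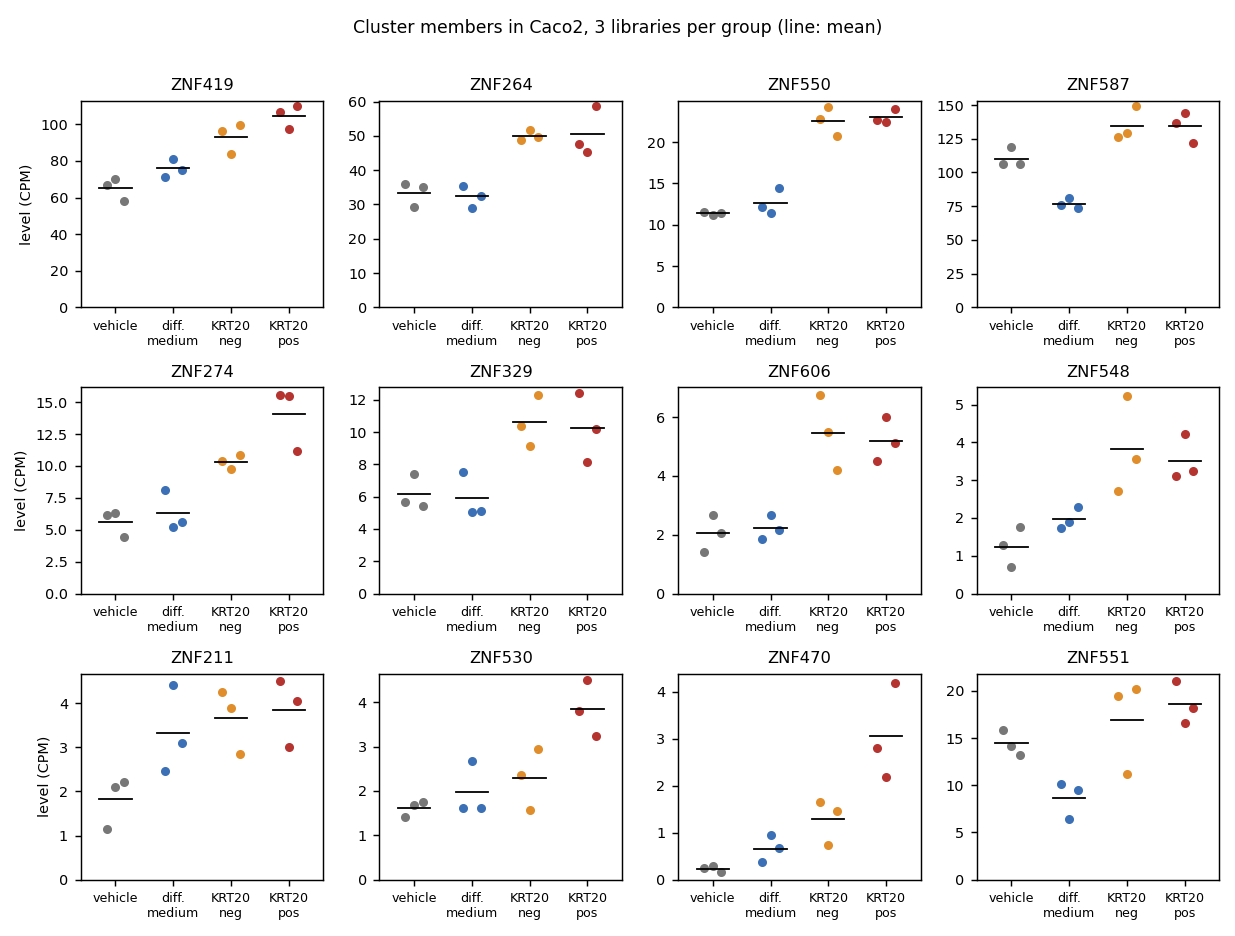
Level in CPM of 12 members in the 12 Caco2 libraries, with points for libraries and a line for the mean of 3, each panel with its own axis from 0. In 8 of the panels (ZNF419, ZNF264, ZNF550, ZNF587, ZNF274, ZNF329, ZNF606 and ZNF548) all 6 shSETDB1 libraries lie above all 6 scramble libraries; ZNF551 falls in differentiation medium.

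A further comparison takes all 6 shSETDB1 libraries against all 6 scramble libraries, whether in vehicle or in differentiation medium. The medium of the shSETDB1 cells is not stated, so hairpin, sort and possibly medium cannot be told apart here either. In 8 of 37 tested members every shSETDB1 library was above every scramble library, and in 0 every one was below. These were ZNF419, ZNF548, ZNF550, ZNF587, ZNF606, ZNF274, ZNF329 and ZNF264. The share was 21.6%, beside 21.6% of the other ZNF genes (73 of 338) and 50% of 19p12 (8 of 16), while 10.1% of all genes tested were above and 9.84% below. Leaving out a library cannot lower these counts. Without KRT20-negative replicate 3, the library with the high fibroblast markers, they were 8 of 37 members, 87 of 338 other ZNF genes (25.7%), 12 of 16 in 19p12 (75%) and 11.6% of all genes tested.

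Members were also compared with scramble cells in differentiation medium. In the KRT20-negative fraction 13 of 37 were called higher and 0 lower, where 38.0% of all genes tested were called (19.6% higher, 18.4% lower). In the KRT20-positive fraction 17 of 37 were called higher and 0 lower, where 34.5% of all genes tested were called (18% higher, 16.6% lower). The medians were 0.37 and 0.60, against 0.02 and 0.01 over all genes tested and 0.4 and 0.37 over the other ZNF genes. Of members 35.1% and 45.9% were called higher, beside 37.6% and 33.1% of the other ZNF genes. In 19p12 the shares were 87.5% and 75%. Differences between these lists were not tested. All 3 libraries of the fraction lay above all 3 in differentiation medium for 23.6% and 23.7% of all genes tested. Without differentiation medium replicate 3 the first count was 8. ZNF419, ZNF550, ZNF587, ZNF606, ZNF274, ZNF329, ZNF264, ZNF551, ZNF444, ZNF417 and ZNF671 were called in both fractions, ZNF548 and ZNF154 only in the KRT20-negative and ZNF470, ZNF530, ZNF776, ZNF549, ZNF773 and ZNF552 only in the KRT20-positive fraction. Of the genes already called against vehicle, the folds over differentiation medium ran from 1.23 (ZNF419) to 2.46 (ZNF606) in the KRT20-negative and from 1.38 (ZNF419) to 4.61 (ZNF470) in the KRT20-positive fraction. In the KRT20-negative fraction ZNF419 was not called without differentiation medium replicate 1 (adjusted p = 0.0838, edgeR) or 3 (0.0504), ZNF274 without differentiation medium replicate 2 (0.0546) or 3 (0.0537), and ZNF548 without any differentiation medium library or KRT20-negative replicate 2 (0.0528 to 0.186). For the KRT20-positive fraction, ZNF329 was not called without KRT20-positive replicate 1 (adjusted p = 0.0534, edgeR), ZNF776 without differentiation medium replicate 1 (0.0564) or KRT20-positive replicate 2 (0.0588), and ZNF530 without differentiation medium replicate 1 or 3 or KRT20-positive replicate 1 or 2 (0.0697 to 0.12). DESeq2 did not call ZNF548 (adjusted p = 0.0805) or ZNF530 (0.0727), and with no low-count filter edgeR did not call ZNF530 (0.0568). Calls in 1 fraction are not shown to differ from the other. These counts include genes that fell in differentiation medium itself, since both comparisons use the same differentiation medium libraries as the comparison with vehicle.

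ZNF551 was at 19.5, 11.2 and 20.2 CPM in the KRT20-negative and 21.1, 16.6 and 18.2 in the KRT20-positive fraction, folds of 1.95 and 2.14 over differentiation medium (adjusted p = 0.000789 and 0.000217, edgeR), and was not called against vehicle. ZNF444 was at 162, 143 and 178 CPM in the KRT20-negative and 146, 162 and 169 in the KRT20-positive fraction, folds of 1.33 and 1.31 (adjusted p = 0.000491 and 0.000665, edgeR), again not called against vehicle. ZNF417, the paralog of ZNF587, was at 4.32, 3 and 3.22 CPM in differentiation medium, 5.67, 6.21 and 5.99 in the KRT20-negative and 6.61, 5.31 and 5.93 in the KRT20-positive fraction, a fold of 1.69 in each (adjusted p = 0.0292 and 0.0318, edgeR). For these genes the shSETDB1 fractions stood near or above vehicle and above differentiation medium. ZNF671, a gene known for promoter methylation in tumours, had 2 counts in differentiation medium against 31 in the KRT20-negative fraction (ratio 12.9, 95% counting interval 3.29 to 112) and 23 in the KRT20-positive fraction (ratio 11.5, interval 2.84 to 101), at a mean of 1.16 and 1.06 CPM (adjusted p = 0.00227 and 0.00463, edgeR). Of these genes only ZNF417 lost a call when 1 library was left out. In the KRT20-negative fraction its adjusted p by edgeR was then 0.0964, 0.0939 and 0.0647 without differentiation medium replicates 2 and 3 and KRT20-negative replicate 2. In the KRT20-positive fraction it was 0.101, 0.0986, 0.106 and 0.0705 without differentiation medium replicates 2 and 3 and KRT20-positive replicates 1 and 3. DESeq2 called ZNF417 in neither (adjusted p = 0.0662 and 0.068).

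Of the other members called there, ZNF154 was at 5.56, 6.15 and 6.98 CPM in differentiation medium and 9.10, 7.43 and 11.2 in the KRT20-negative fraction, a fold of 1.49 (adjusted p = 0.0475, edgeR). ZNF549 was called in the KRT20-positive fraction at a fold of 2.35 over differentiation medium, where it was at 3.70, 2.68 and 3.49 CPM (adjusted p = 0.00132, edgeR). ZNF773 was at 33.6, 21.1 and 30.9 CPM in differentiation medium and 39.4, 37.9 and 36.1 in the KRT20-positive fraction, a fold of 1.32 (adjusted p = 0.0406, edgeR). ZNF552 was at 21.4, 14.0 and 17.6 CPM in differentiation medium and 24.5, 24.4 and 24.0 in the KRT20-positive fraction, a fold of 1.37 (adjusted p = 0.0232, edgeR). The groups did not overlap for ZNF154, ZNF549, ZNF773 or ZNF552. ZNF552 shares 90.3% identity over 207 of the last 300 bases of its transcript with ZNF587B, so tags may have been split between them. The call of ZNF154 was also lost with RLE size factors (adjusted p = 0.0516, edgeR), no low-count filter (0.0546), only the 2 groups compared (0.0606) and DESeq2 (0.1). It was lost without any 1 of the 3 differentiation medium libraries or KRT20-negative replicate 1 or 3 (adjusted p from 0.0587 to 0.198, edgeR). The call of ZNF773 was lost without differentiation medium replicate 2 or 3 or any 1 of the 3 KRT20-positive libraries (0.0568 to 0.222) and with DESeq2 (0.0607), and that of ZNF552 without any 1 of those same 5 libraries (0.0558 to 0.129).

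Between the KRT20-positive and the KRT20-negative fraction 0 of 37 tested members were called in either direction by edgeR, where 4.08% of all genes tested were called (2.30% higher, 1.78% lower). At an unadjusted p under 0.05 there were 4 members (10.8%, against 16.5% of all genes tested), DESeq2 also called 0, and the median log2 fold change was 0.04 against 0.00 over all genes. KRT20 itself was at 1.06, 1.83 and 1.16 CPM in the negative and 35.9, 38.8 and 26.7 in the positive fraction.

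**Figure D3:**
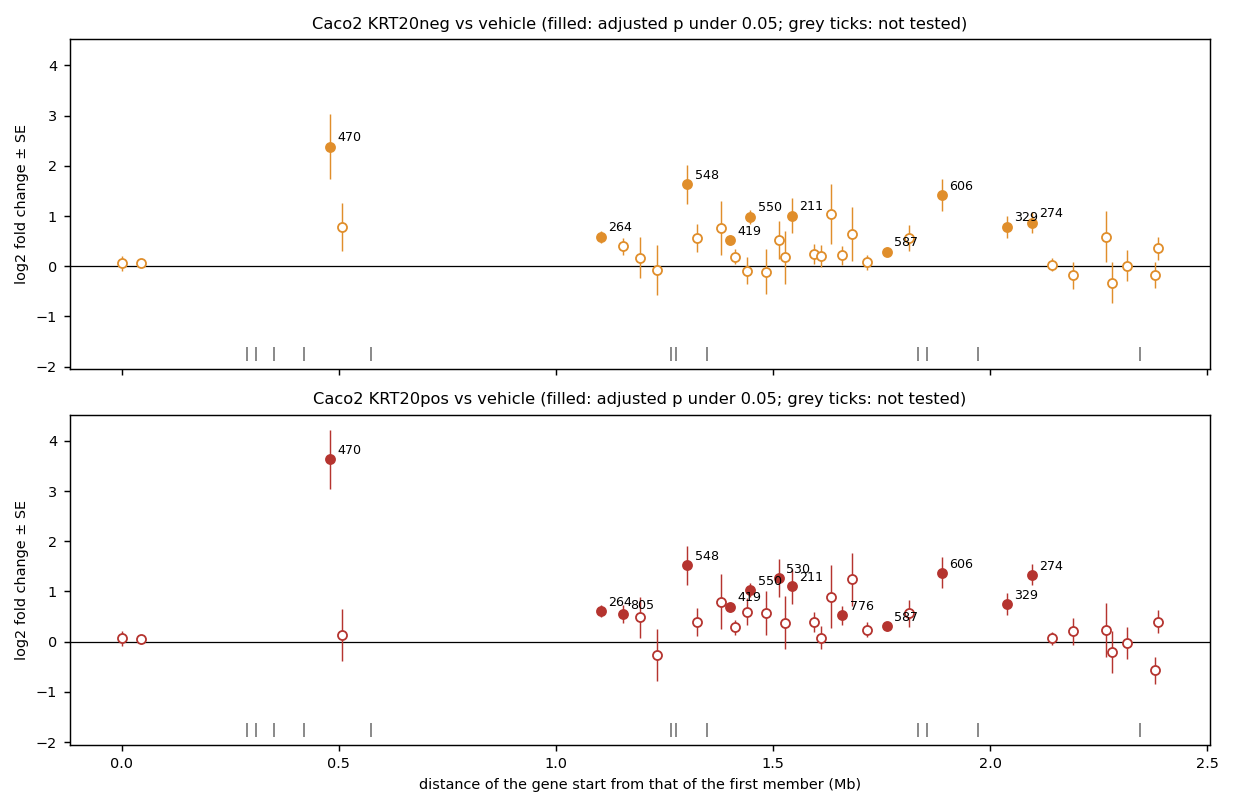
Fitted log2 fold change against vehicle, with SE, of the 37 tested members in the KRT20-negative (upper) and KRT20-positive (lower) fraction, by distance from the start of the first member in Mb. Filled points are called, labels drop the letters ZNF, and grey ticks mark the 12 members that were not tested. ZNF470, highest at 2.38 and 3.63, is the only called member on the centromeric side of the gap.

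Along the chromosome the called members were interleaved with members that were not called. ZNF787 and ZNF444 at the centromeric end, which do not encode KRAB proteins, were at 91.6, 104 and 88.7 and at 159, 159 and 147 CPM in vehicle, and neither was called in either fraction against vehicle. At the telomeric end none of ZNF544, ZNF8, ZNF497, ZNF837, ZNF584, ZNF324 and ZNF446 was called against vehicle in either fraction. ZNF544, the most highly counted of them, was at 25.8, 29.7 and 26.2 CPM in vehicle, 30.7, 24.5 and 28.1 in the KRT20-negative and 30.2, 26.3 and 28.4 in the KRT20-positive fraction, groups that overlap.

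The summed level of the 49 members, which is dominated by the most highly counted genes, was 671, 684 and 625 CPM in vehicle and 585, 596 and 577 in differentiation medium. It was 760, 742 and 869 in the KRT20-negative fraction and 813, 822 and 827 in the KRT20-positive fraction. Every shSETDB1 library was above every scramble library, and every library in differentiation medium was below every library in vehicle.

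**Figure D4:**
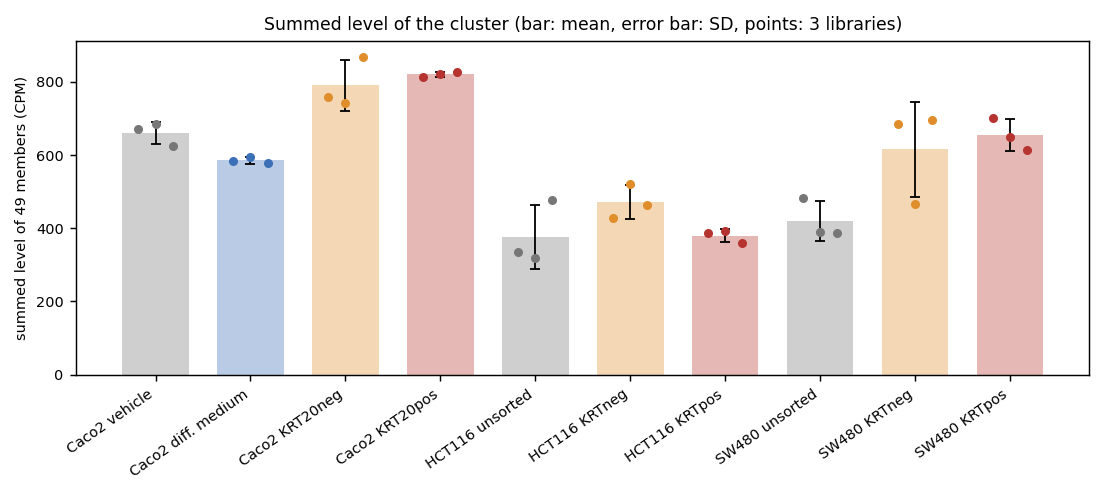
Summed level of the 49 members in CPM for the 10 groups, with bars for the mean, error bars for the SD and points for the 3 libraries. In Caco2 the shSETDB1 fractions lie between 742 and 869 and the scramble groups between 577 and 684. In HCT116 the unsorted cells (318 to 476) overlap both fractions with the TMM factors used here, but not the KRT-negative fraction with library totals.

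Genes of the same band that are not members were counted for comparison. Of 14 tested, 1 was called higher and 2 lower in the KRT20-negative fraction and 6 higher and 2 lower in the KRT20-positive fraction. The shares were 7.14% higher and 14.3% lower, then 42.9% and 14.3%. Over all genes tested they were 18.6% and 17.6%, then 19.3% and 18.4%. C19orf18 was at 0.385, 0.421 and 0.476 CPM in vehicle, 2.01, 1.58 and 1.89 in the KRT20-negative and 3.24, 3.27 and 2.97 in the KRT20-positive fraction (log2 fold change 2.07 and 2.87, adjusted p = 0.00157 and 2.42e-05, edgeR). ZNF814, ZNF587B, ZSCAN5A, AURKC and CHMP2A were called higher in the KRT20-positive fraction, by 0.31 to 1.17 on the log2 scale. Of these, ZNF814 overlaps the member ZNF587 on the other strand. TRIM28, the KRAB corepressor, is encoded in the same band and fell by 0.35 in the KRT20-negative fraction (SE 0.10, adjusted p = 0.00985, edgeR) and by 0.36 in the KRT20-positive fraction (SE 0.10, adjusted p = 0.00848, edgeR). MZF1-AS1 fell by 0.57 and by 0.64, with adjusted p = 0.0087 and 0.00408 by edgeR.

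Genes of the silencing machinery were called in both directions, more of them lower. Of 29 tested, 5 were called higher and 10 lower in the KRT20-negative fraction and 4 higher and 12 lower in the KRT20-positive fraction. The shares were 17.2% higher and 34.5% lower, then 13.8% and 41.4%. Over all genes tested they were 18.6% and 17.6%, then 19.3% and 18.4%. Differences between these shares were not tested. ATF7IP, which binds and stabilises SETDB1, rose from a mean of 125.5 CPM in vehicle to 380 in the KRT20-negative and 316.9 in the KRT20-positive fraction (log2 fold change 1.60 and 1.35, adjusted p = 4.83e-14 and 9.03e-13, edgeR). Its paralog ATF7IP2 rose by 1.19 and 1.07 (adjusted p = 2.53e-08 and 1.37e-07, edgeR). The DNA methyltransferase DNMT3B fell by 0.90 and by 0.98 (adjusted p = 1.7e-06 and 4.85e-07, edgeR), and the heterochromatin protein CBX1 fell by 0.49 and by 0.65 (adjusted p = 3.24e-06 and 4.24e-08, edgeR). Whether any of these changes bears on the cluster was not tested.

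Some members differed between the reference cells of the lines. With both directions counted, the share of members called was in no comparison above that of all genes tested. Differences between these shares were not tested. In unsorted HCT116 cells against Caco2 vehicle, 10 of 40 members tested in the joint fit were higher in Caco2 and 2 lower, where 32.0% of the 16150 genes tested were called (19.3% higher, 12.6% lower). In unsorted SW480 cells against Caco2 vehicle, 7 of 40 were higher in Caco2 and 2 lower, where 33.0% of all genes tested were called (19.7% higher, 13.3% lower). Between HCT116 and SW480, 3 of 40 were higher in HCT116 and 4 in SW480, where 22.0% of all genes tested were called (10.6% and 11.4%). The medians over the 40 members were 1.12, 0.98 and -0.15 on the log2 scale, against 0.16, 0.20 and 0.00 over all genes tested. Without HCT116 unsorted replicate 1 the first count of 12 calls was 7, and the count of 7 between HCT116 and SW480 was 2, or 4 without HCT116 unsorted replicate 2. In these comparisons the line, the hairpin and the medium of the reference cells cannot be told apart. The first 2 share the vehicle libraries, and each unsorted group enters 2 of the 3 comparisons.

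ZNF550 and ZNF154 had 0 counts in all 18 HCT116 and SW480 libraries, against 1614 and 733 counts over the 12 Caco2 libraries. ZNF154 was at 5.64, 9.12 and 9.53 CPM in vehicle. Over the 155043065 counts of those 18 libraries, 0 counts allow a level of up to 0.0193 CPM. With a floor of 3 counts over a group of 3 libraries for each bound, ZNF550 was at least 71.0-fold lower in unsorted HCT116 and at least 90.8-fold lower in unsorted SW480 cells than in vehicle, and ZNF154 at least 49.6-fold and 63.4-fold lower (adjusted p = 5.18e-05, 3.9e-05, 0.000427 and 0.000337, edgeR). Of 24 members at 2 CPM or more in vehicle these 2 were at 0 in all 18 libraries (8.33%), against 0 of 280 other ZNF genes and 230 of 12473 symbols (1.84%). ZNF671, ZNF256, ZNF835 and ZNF132 were also at 0 there, ZNF132 in all 30 libraries, and all 4 were under 1.7 CPM in every Caco2 library. The shSETDB1 fractions of HCT116 and SW480 gave no count of ZNF550 or ZNF154.

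ZNF773 was near 0 outside Caco2. It was at 36.4, 32.5 and 24.4 CPM in Caco2 vehicle, 0, 0 and 0.414 in unsorted HCT116 and 0.612, 0.238 and 1.57 in unsorted SW480 cells (adjusted p = 0.000427 and 0.00331, edgeR). With 2 counts in HCT116 the ratio of Caco2 to HCT116 was 295, with a 95% counting interval of 81.3 to 2440. In SW480 KRT-positive replicate 2 it was at 11 CPM, the highest of the 18 libraries.

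ZNF264 was low in SW480 alone. It was at 50.7, 48.2 and 34.0 CPM in unsorted HCT116 cells, a level like that of the Caco2 groups at 29 to 58.6, and at 0.306, 0 and 0 in unsorted SW480 cells. With 2 counts in SW480, Caco2 vehicle was 399-fold higher (95% counting interval 110 to 3300, adjusted p = 1.52e-06, edgeR) and unsorted HCT116 542-fold higher (interval 150 to 4480, adjusted p = 1.73e-06, edgeR). In the SW480 fractions it was at 0.110, 0.336 and 0.318 CPM (KRT-negative) and 0.304, 0.649 and 13.8 (KRT-positive), so 1 library of 9 had a level above 1 CPM.

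ZNF304 was high in HCT116 alone. This gene, which encodes a KRAB zinc finger protein, was at 24.4, 15.4 and 37.7 CPM in unsorted HCT116 cells, 42.7, 53.8 and 57.1 in the KRT-negative and 23.8, 35 and 18.6 in the KRT-positive fraction. In Caco2 it lay between 0 and 0.944 CPM in all 12 libraries, and in SW480 it was at 4.59 in 1 unsorted library and between 0 and 0.331 in the other 8. Unsorted HCT116 cells were 83.0-fold above Caco2 vehicle (log2 fold change of Caco2 against HCT116 -6.24, SE 1.54, adjusted p = 0.00313, edgeR) and 16.9-fold above unsorted SW480 cells (log2 fold change 4.08, SE 1.36, adjusted p = 0.034, edgeR). The second call was lost without HCT116 unsorted replicate 1 (adjusted p = 0.0551, edgeR) or 3 (0.0763), or without SW480 unsorted replicate 2 (0.0798) or 3 (0.0845). No comparison within HCT116 called it.

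**Figure D5:**
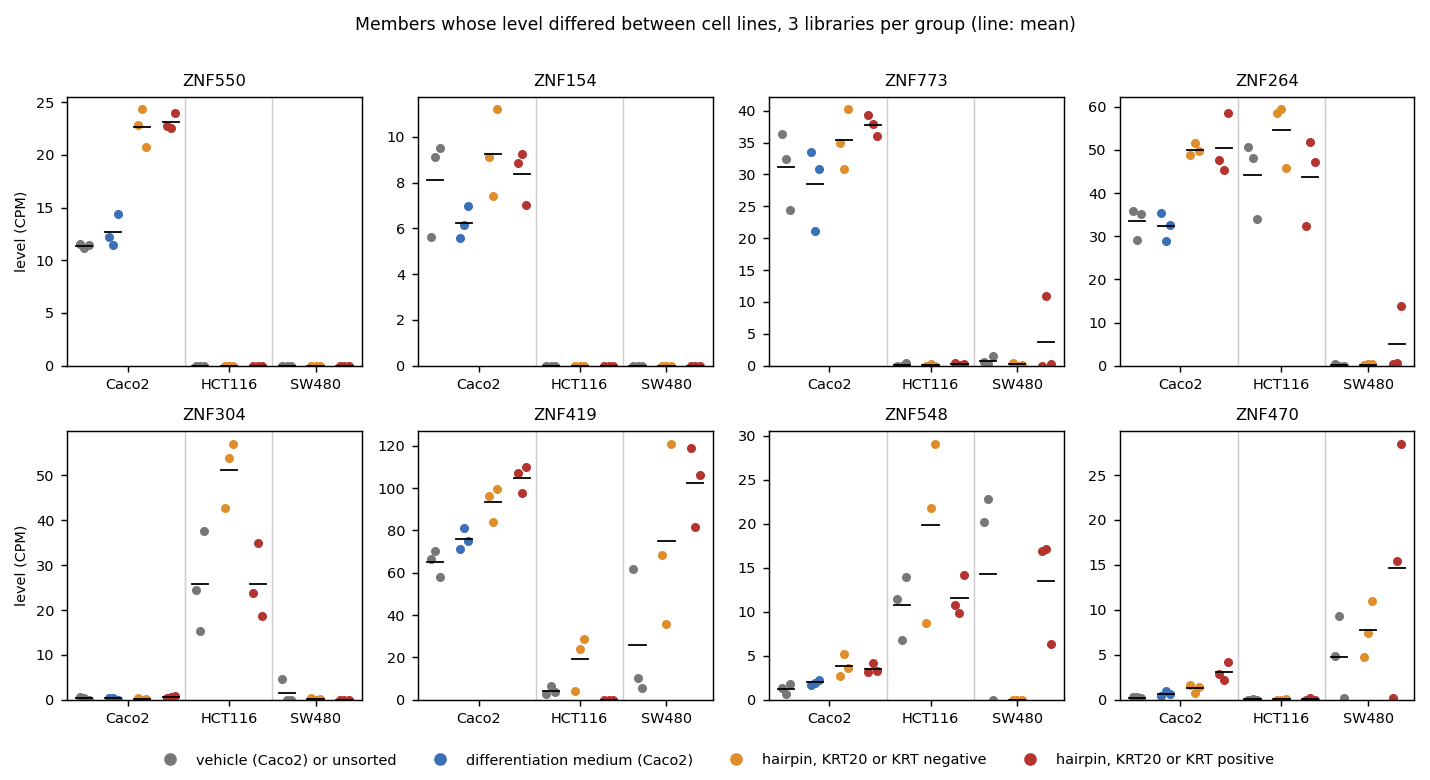
Level in CPM of 8 members in the 30 libraries, with points for libraries and a line for the mean of 3, each panel with its own axis from 0. ZNF550 and ZNF154 are at 0 in HCT116 and SW480, ZNF264 is near 0 in SW480 except for 1 KRT-positive library at 13.8, and ZNF304 is high in HCT116 only.

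Other members that differed between reference groups varied more between libraries. ZNF548 was at 11.5, 6.78 and 13.9 CPM in unsorted HCT116 and 20.2, 22.8 and 0 in unsorted SW480 cells, above Caco2 vehicle by 8.61-fold and 11.5-fold (adjusted p = 0.0355 and 0.0189, edgeR), although 1 SW480 library was at 0. ZNF419 was at 2.71, 6.64 and 3.73 CPM in unsorted HCT116 cells, 14.9-fold below Caco2 vehicle (adjusted p = 0.000148, edgeR), and at 61.7, 10.2 and 5.37 in unsorted SW480 cells, 5.91-fold above HCT116 (adjusted p = 0.0083, edgeR). ZNF470 was at 0, 0.138 and 0 CPM in unsorted HCT116 and at 4.90, 9.27 and 0.224 in unsorted SW480 cells, 20.7-fold above Caco2 vehicle (adjusted p = 0.0283, edgeR) and also called above HCT116 (adjusted p = 0.00952, edgeR), where the unsorted cells held 1 count against 112 (ratio 87.6, 95% counting interval 15.4 to 3490). ZNF606 was at 0 in all 9 HCT116 libraries and at 0, 19.8 and 0 in unsorted SW480 cells, so its call between those lines (adjusted p = 0.0264, edgeR) rests on 1 library, without which the gene was at 0 in both groups. Most of these calls were lost without single libraries. For ZNF548 that held for 5 of the 6 libraries compared with HCT116, all but HCT116 unsorted replicate 2 (adjusted p from 0.0603 to 0.123, edgeR), and for vehicle replicates 1 and 2 and SW480 unsorted replicate 2 compared with SW480 (0.0561 to 0.079). The call of ZNF470 between Caco2 and SW480 was lost without any vehicle library or SW480 unsorted replicate 2 (0.0792 to 0.0984), that of ZNF419 between HCT116 and SW480 without HCT116 unsorted replicate 1 (0.0508) or SW480 unsorted replicate 1 (0.325), and that of ZNF606 also without any HCT116 unsorted library (0.0631 to 0.0799).

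ZNF587 was called lower in both lines than in Caco2, at 36.0, 23.2 and 18.4 CPM in unsorted HCT116 and 34.9, 37.2 and 27.5 in unsorted SW480 cells, folds of 4.25 and 3.32 (adjusted p = 8.78e-05 and 0.000561, edgeR). ZNF444 was at 17.5, 41.0 and 93.4 CPM in unsorted HCT116 cells, 3.06-fold below Caco2 vehicle (adjusted p = 0.00299, edgeR). ZNF211 was at 11.2, 4.71 and 0.207 CPM in unsorted HCT116 and at 0 in all 3 unsorted SW480 libraries, at least 46.4-fold lower there (adjusted p = 0.0341, edgeR). ZNF71 was at 0, 0.277 and 0.621 CPM in unsorted HCT116 and 3.83, 7.72 and 23.6 in unsorted SW480 cells, 39.2-fold higher (adjusted p = 0.0202, edgeR). ZNF549, ZNF671, ZNF497 and ZNF606 were called lower in HCT116 than in Caco2, and ZNF530 and ZNF671 lower in SW480, all from 0 or 2 counts in the lower group and under 6 CPM on average in vehicle. ZNF211 was not called without HCT116 unsorted replicate 1 or 2 or any SW480 unsorted library (adjusted p from 0.0501 to 0.093, edgeR). ZNF71 was not called without HCT116 unsorted replicate 1 (0.0786) or 2 (0.0697) or SW480 unsorted replicate 3 (0.0729). Against HCT116, ZNF549 was not called without vehicle replicate 2 or HCT116 unsorted replicate 1 or 2 (0.0596 to 0.0906), ZNF671 without vehicle replicate 2 or any HCT116 unsorted library (0.0529 to 0.0653), and ZNF497 without HCT116 unsorted replicate 1 or 2 (0.0542 and 0.0559). ZNF606, with 0 counts against 43 in vehicle (at least 12.6-fold lower, adjusted p = 0.0452, edgeR), was not called against HCT116 without any 1 of the 6 libraries (0.0641 to 0.114) or with no low-count filter (0.057). DESeq2 did not call ZNF671 against HCT116 (adjusted p = 0.318) or SW480 (0.257), nor ZNF497 against HCT116 (0.0676). Against SW480, ZNF671 was not called without SW480 unsorted replicate 3 (0.0506), and ZNF530 was not called without any 1 of the 6 libraries (0.0666 to 0.108) or with no low-count filter (0.0566).

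Within HCT116 the shSETDB1 fractions gave few calls. Between the KRT-negative fraction and unsorted cells 0 of 27 tested members were called by edgeR, where 5.26% of the 13279 genes tested were called (2.82% higher, 2.44% lower); 4 members (14.8%) had an unadjusted p under 0.05, against 17.7% of all genes tested, and DESeq2 called 2 members. Between the KRT-positive fraction and unsorted cells 0 were called higher and 1 lower, where 9.28% of all genes tested were called (4.26% higher, 5.02% lower). Between the fractions 0 were called higher and 1 lower, where 0.550% of all genes tested were called (0.166% higher, 0.384% lower). The medians were 0.49, 0.07 and -0.15 on the log2 scale, against 0.04, 0.07 and 0.03 over all genes tested.

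The member called in HCT116 was ZNF419. It was at 2.71, 6.64 and 3.73 CPM in unsorted cells, 4.28, 24.2 and 28.7 in the KRT-negative fraction and 0 in all 3 KRT-positive libraries. The KRT-positive level was at least 47.7-fold lower than in unsorted cells (adjusted p = 0.0106, edgeR) and at least 208-fold lower than in the KRT-negative fraction (adjusted p = 0.0305, edgeR). All 6 other HCT116 libraries were above the 3 KRT-positive libraries. The KRT-positive fraction lay below unsorted cells in all libraries for 15.4% of all genes tested, and below the KRT-negative fraction for 9.35%. The floor for these bounds is again 3 counts over the group. The call between the fractions was lost without any KRT-positive library or KRT-negative replicate 2 or 3 (adjusted p from 0.0888 to 0.24, edgeR), and with only the 2 groups compared in the fit the call against unsorted cells was lost too (adjusted p = 0.0951, edgeR).

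ZNF274 was at 1.36, 0 and 6.62 CPM in unsorted HCT116 cells, 22.3, 8.71 and 3.29 in the KRT-negative and 0, 5.99 and 4.66 in the KRT-positive fraction. The groups overlapped, and the log2 fold changes against unsorted cells were 2.17 (SE 1.88, adjusted p = 0.652, edgeR) and 0.48 (SE 1.82, adjusted p = 0.933, edgeR). TRIM28 fell in both fractions, by 1.31 (SE 0.34, adjusted p = 0.0362, edgeR) and by 1.66 (SE 0.35, adjusted p = 0.00592, edgeR).

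Within SW480 0 of 28 tested members were called by edgeR in each of the 3 comparisons. All genes tested numbered 13252, of which 2.12% were called for the KRT-negative fraction against unsorted cells (1.36% higher, 0.762% lower), 3.47% for the KRT-positive fraction against unsorted cells (1.9% higher, 1.57% lower) and 0.445% between the fractions (0.226% higher, 0.219% lower). At an unadjusted p under 0.05 there were 2, 2 and 1 members (7.14%, 7.14% and 3.57%, against 12.8%, 16.9% and 11.1% of all genes tested), and DESeq2 called 1, 0 and 1. Without SW480 unsorted replicate 1, 1 member was called higher in each fraction against unsorted cells, and without replicate 3, 1 was called lower in the KRT-negative fraction. The medians were 1.02, 0.84 and -0.12 on the log2 scale, against 0.01, 0.03 and 0.00 over all genes tested and 0.41, 0.47 and 0.10 over 318 other ZNF genes.

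ZNF274 in SW480 was at 1.22, 11.8 and 0 CPM in unsorted cells, 21.5, 19.6 and 33.8 in the KRT-negative and 7.59, 25.0 and 12.5 in the KRT-positive fraction. The KRT-negative libraries lay above all unsorted libraries, as for 12.5% of all genes tested, but the difference was not called (log2 fold change 2.53, SE 1.40, adjusted p = 0.51, edgeR). ZNF419 was at 68.4, 35.9 and 121 CPM in the KRT-negative and 119, 81.8 and 106 in the KRT-positive fraction against 61.7, 10.2 and 5.37 in unsorted cells, and was not called in either. The summed level of the members was 483, 390 and 387 CPM in unsorted SW480 cells, 686, 465 and 695 in the KRT-negative and 700, 649 and 614 in the KRT-positive fraction. In HCT116 it was 334, 318 and 476 in unsorted cells, 428, 520 and 464 in the KRT-negative and 387, 392 and 359 in the KRT-positive fraction. In SW480 all 3 KRT-positive libraries were above the unsorted ones. In HCT116 the unsorted cells overlapped both fractions, and all 3 KRT-negative libraries were above the KRT-positive ones. This HCT116 pattern did not hold with library totals in place of TMM factors. The sums were then 352, 323 and 430 CPM in unsorted cells, 473, 529 and 455 in the KRT-negative and 447, 468 and 423 in the KRT-positive fraction. With that scaling the fractions overlapped, and all 3 KRT-negative libraries were above the unsorted ones.

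Whether a step differed between lines was tested as an interaction in the joint fit. For the step from the KRT-negative to the KRT-positive fraction, 1 of 40 members was called between Caco2 and HCT116, where 0.502% of the 16150 genes tested were called, 1 between Caco2 and SW480 (1.02%) and 3 between HCT116 and SW480 (2.14%). For the step from unsorted cells, 1 member was called between HCT116 and SW480 for the KRT-negative fraction (5.47%) and 2 for the KRT-positive fraction (6.47%). The 8 calls concern 3 genes, ZNF419, ZNF548 and ZNF264. These counts moved with single libraries. Without SW480 KRT-positive replicate 1 the count was 3 between Caco2 and SW480 and 5 between HCT116 and SW480, and without SW480 KRT-positive replicate 2 it was 2 between Caco2 and SW480. Without HCT116 KRT-negative replicate 3, SW480 KRT-negative replicate 2 or SW480 unsorted replicate 2 the count for the KRT-negative fraction against unsorted cells was 2, and without SW480 KRT-positive replicate 3 that for the KRT-positive fraction was 1. The rise of the Caco2 shSETDB1 cells over vehicle has no interaction test here, because the reference cells of the lines differ in kind, so a response of these genes in Caco2 is not shown to differ from that in HCT116 or SW480.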

How the data were processed

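Expression was measured as 3′ tag RNA-seq, per the labels, in 30 libraries. The authors deposited whole-number counts per gene symbol, 1 table of 25737 lines per library. The build hg19 and the tools Bowtie2 and edgeR, without versions, are named per the submitters' processing notes. The counting tool, its use of strand and any filter are not given in the sources used here. Since the deposited counts are of PCR-amplified tags without stated molecular identifiers, intervals and floors (3 counts) cover counting error only.

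Groups were taken from the sample titles. Lines with a repeated symbol (1561 lines of 286 symbols) were summed, which left 24462 symbols; no member was among them. Counts were tested in R 4.3.3 by the robust quasi-likelihood F test of edgeR 4.0.16 (low counts removed by filterByExpr, TMM scaling, Benjamini-Hochberg over all genes tested, threshold 0.05). There was 1 fit per line with all groups of the line (13968 genes and 37 members in Caco2, 13279 and 27 in HCT116, 13252 and 28 in SW480) and 1 joint fit of 30 libraries (16150 genes, 40 members) for comparisons between lines. The SE of a log2 fold change is its size divided by the square root of F. Fold changes named as folds are ratios of mean CPM. The fits were also run on simulated counts with known changes. That run set no requirement on the share of changes recovered in HCT116 or SW480, and no result here rests on it.

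The members and the gene lists (genes of the same band, 19p12 zinc fingers, silencing machinery, cell type markers) were chosen with earlier results of these data known, so no list test or list-adjusted p is given. Members called in a comparison are named, with levels for up to 10 per direction by fold change at 2 CPM or more; ZNF274 is always given, as are members at 0 in a reference group. SETDB1, ATF7IP, TRIM28 and KRT20 are named as checks. Genes of the same band called in the Caco2 shSETDB1 comparisons with vehicle are also named. Of the called genes of the silencing machinery only some are named, and of 19p12 none. The levels of ZNF671, ZNF544 and ZNF787 lie outside this rule and were chosen after their values were seen. Alternatives were RLE factors, library totals, no filter, DESeq2 1.42.0 and leaving out each library. A replicate block and only the groups compared were run for the fits per line, not for the joint fit. Positions come from GENCODE 29 (GRCh38) and promoters from RefSeq (GRCh38.p14).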

Additional observations from a re-analysis of the deposited data

Results flagged for a closer look

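The step between 2 groups differed between lines, by an interaction test in the joint edgeR fit with Benjamini-Hochberg adjustment, for 8 results in 3 members. Each value below is the difference of 2 fitted log2 fold changes, the first line minus the second.

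For ZNF419 the step from the KRT-negative to the KRT-positive fraction differed by 10.46 between Caco2 and HCT116 (SE 1.47, adjusted p = 0.000452, edgeR) and by -10.72 between HCT116 and SW480 (SE 1.47, adjusted p = 0.00032, edgeR). The step from unsorted cells to the KRT-positive fraction differed by -10.16 between HCT116 and SW480 (SE 1.5, adjusted p = 0.00019, edgeR). All 3 rest on the HCT116 KRT-positive libraries, where ZNF419 had 0 counts, against 4.28, 24.2 and 28.7 CPM in the KRT-negative fraction of that line. ZNF419 stood at 97.5 to 110 CPM in the Caco2 and 81.8 to 119 CPM in the SW480 positive fraction. Because a group at 0 enters each of them, the fitted size depends on the prior count and is no bound.

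For ZNF548 the step between the fractions differed by -9.93 between Caco2 and SW480 (SE 1.90, adjusted p = 0.00862, edgeR) and by -10.56 between HCT116 and SW480 (SE 1.91, adjusted p = 0.0056, edgeR). The step from unsorted cells to the KRT-negative fraction differed by 10.79 between HCT116 and SW480 (SE 1.91, adjusted p = 0.00114, edgeR). These rest on the SW480 KRT-negative libraries, all 3 at 0 counts, against 16.9, 17.1 and 6.36 CPM in the SW480 KRT-positive and 8.68, 21.8 and 29.1 CPM in the HCT116 KRT-negative fraction. One unsorted SW480 library, replicate 3, was at 0 as well.

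For ZNF264 the step between the fractions differed by -4.48 between HCT116 and SW480 (SE 1.14, adjusted p = 0.039, edgeR), and the step from unsorted cells to the KRT-positive fraction by -5.60 (SE 1.30, adjusted p = 0.0109, edgeR). In HCT116 it lay between 32.4 and 59.4 CPM in all 9 libraries, and in SW480 it was under 1 CPM in all libraries but KRT-positive replicate 3, at 13.8. Without that library neither was called (adjusted p = 0.433 and 0.092, edgeR). The first was also lost without any 1 of 8 other libraries, all but SW480 KRT-positive replicates 1 and 2 and HCT116 KRT-negative replicate 1 (adjusted p from 0.0507 to 0.0743). The 6 results for ZNF419 and ZNF548 stayed called under every alternative run for them. Those did not include the replicate block or a fit of only the groups compared, which were not run for the joint fit. Its biological coefficient of variation, over all lines, was 0.687, beside 0.102 in Caco2, 0.781 in HCT116 and 0.935 in SW480. How far the interaction p-values depend on that shared spread was not tested.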

How the results depend on the processing

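Over 20 counts of called members, 230 of 260 alternative values lay within 1.5 times the reported count. Leaving out 1 library in turn gave, in Caco2, 2 to 4 for medium against vehicle (3 reported), 9 to 10 (10) and 10 to 14 (13) for the KRT20-negative and KRT20-positive fractions against vehicle, 8 to 12 (13) and 12 to 15 (17) against differentiation medium, and 0 between fractions. It gave 0, 1 and 0 to 1 in HCT116 and 0 to 1, 0 to 1 and 0 in SW480 (KRT-negative and KRT-positive against unsorted, then between fractions). It gave 7 to 10 (12), 6 to 10 (9) and 2 to 9 (7) for the reference cells of Caco2 against HCT116, Caco2 against SW480 and HCT116 against SW480. For the interactions it gave 1, 1 to 3 and 2 to 5 for the step between fractions in the same order, and 1 to 2 and 1 to 3 for the steps from unsorted cells. DESeq2 called 2, 2 and 3 members in HCT116 and 1, 0 and 1 in SW480. It also called 2 for the interaction of Caco2 with HCT116, and 3 and 4 for the steps from unsorted cells. With no low-count filter the SW480 KRT-negative fraction had 1 call against unsorted cells, and with only the groups compared the HCT116 KRT-positive fraction had 0. The replicate block took the single call between HCT116 fractions to 0 and moved no other count by 1.5 times. Same-numbered libraries share only a number: in Caco2 the deviations correlated at 0.001 to 0.092, in HCT116 at -0.023 to 0.074, in SW480 at 0.007 to 0.115, and the highest r was with the own number for 12 of 12, 3 of 9 and 7 of 9 libraries, a hint from the data and not the design. With library totals in place of TMM the mean summed level was 550 CPM in Caco2 differentiation medium (586 reported), 812 in KRT20-positive cells (821) and 446 in HCT116 KRT-positive cells (379). ZNF606 between HCT116 and SW480 unsorted cells had a log2 fold change of -9.38 to 0 when 1 library was left out, the 0 without SW480 unsorted replicate 2. Adding the trend of expression with GC content as a covariate, an alternative chosen after seeing the data, left the counts in HCT116 (0, 1, 1) and SW480 (0, 0, 0) as they were. Of 94 calls of single members 57 held under every alternative run and 37 were lost under at least 1, among them 14 of 28 between reference cells and 19 of 56 within Caco2. The cause of these shifts was not tested. Depth limits the members under a few CPM, and in HCT116 and SW480 the spread between replicates limits all of them.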
